A study of Mus musculus with 6 samples.

Results

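The genes 5830418P13Rik, Ankrd23, Rp1, Clstn2 and Gm36670 were followed through the nuclei of left ventricles of mice with the R403Q mutation. They were 5 of the 33696 genes in the count tables and were chosen by their measured values, since in cardiomyocyte nuclei both R403Q-CD libraries differed from both WT-CD libraries. That contrast therefore describes the choice and carries no test here. All 5 passed the filter on low counts that left 14504 genes in cardiomyocyte nuclei. Gene identifiers were ENSMUSG00000086236 for 5830418P13Rik, ENSMUSG00000067653 for Ankrd23, ENSMUSG00000025900 for Rp1, ENSMUSG00000032452 for Clstn2 and ENSMUSG00000109696 for Gm36670.

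Single-nucleus RNA sequencing compared 3 groups of male mice aged 12 weeks, with 2 libraries in each group. WT-CD mice were wild-type littermates on control diet (CD). R403Q-CD mice were heterozygous for the mutation (genotype Myh6+/R404Q, called R403Q), a model of hypertrophic cardiomyopathy, and ate the same diet. R403Q-EMPA mice carried the same allele and ate this diet with empagliflozin (EMPA), an inhibitor of the sodium-glucose cotransporter SGLT2, at 0.15 mg/g of diet or about 15 mg/kg. Feeding started when mice were 9 to 10 weeks old, and the protocol placed myocardial RNA sequencing after 2 weeks of treatment, whereas the longer period in the labels is that of the full feeding experiment. Nuclei came from frozen ventricular tissue, and nothing says whether a library was 1 heart or a pool, so p-values measure the spread between libraries only.

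Ankrd23 (also known as DARP) is a muscle ankyrin repeat protein that binds titin in the sarcomere, in the same small family as the stress-responsive Ankrd1. Clstn2 encodes calsyntenin-2, a cadherin-type membrane protein known from synapses, and Rp1 encodes a doublecortin-domain protein that binds microtubules of the photoreceptor outer segment. 5830418P13Rik and Gm36670 are annotated as long non-coding RNAs without a function known here. In cardiomyopathy, cardiomyocytes switch on stress genes such as Nppa and Nppb, which encode natriuretic peptides.

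Of 69249 barcodes, 46005 nuclei were kept, and 6998 of them were cardiomyocyte nuclei, in which Ttn, Ryr2 and Myh6 made up at least 1.5% of unique molecular identifiers (UMIs). A library held 723 to 1615 such nuclei, with medians of 6853 to 12115 UMIs a nucleus and 8507416 to 14383541 UMIs in all. Few cardiomyocyte nuclei, 156, lay just above the limit, between 1.5% and 2%, and 236 nuclei lay between 1% and 1.5%. Myh6, which carries the mutation, was present at 7645 to 9345 counts per 1000000 UMIs (CPM) in cardiomyocyte nuclei of the 6 libraries, and gene counts cannot show the altered base. Libraries of a pair shared 23 to 56 barcodes, at most 0.489% of the smaller library. The libraries of each group differed by more than counting noise, with chi-square per degree of freedom of 5.29 to 21.4. Fewer molecules per nucleus and fewer nuclei expressing a gene cannot be told apart in summed counts, so the share of positive nuclei is given beside the level.

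Promoter sequence was at hand for 3 of the 5 genes, and the windows are shown because Clstn2 and Gm36670 were the 2 genes that were lower and Ankrd23 was among those that were higher. Each window holds 300 bases of RefSeq sequence (build GRCm38.p6, minus strand, written in the direction of transcription), from 250 bases before to 50 after an annotated start. Ankrd23 had 2 annotated starts. Capitals mark matches on either strand to the cyclic AMP response element (TGACGTCA), to the M-CAT motif (CATTCCT) or to the GATA motif (AGATAA, or TTATCT on the other strand).
Clstn2, chr9:98033118-98033417: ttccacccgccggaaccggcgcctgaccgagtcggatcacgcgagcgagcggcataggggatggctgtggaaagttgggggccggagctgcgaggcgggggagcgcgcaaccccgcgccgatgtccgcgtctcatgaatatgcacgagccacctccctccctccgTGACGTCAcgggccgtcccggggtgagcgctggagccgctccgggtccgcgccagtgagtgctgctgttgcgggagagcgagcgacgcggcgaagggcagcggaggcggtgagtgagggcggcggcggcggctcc
Gm36670, chr8:91991800-91992099: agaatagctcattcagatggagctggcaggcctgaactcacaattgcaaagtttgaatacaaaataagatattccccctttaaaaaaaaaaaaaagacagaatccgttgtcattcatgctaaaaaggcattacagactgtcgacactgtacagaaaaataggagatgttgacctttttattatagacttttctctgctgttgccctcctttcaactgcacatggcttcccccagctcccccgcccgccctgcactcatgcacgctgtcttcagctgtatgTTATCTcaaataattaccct
Ankrd23, first start, chr1:36536507-36536806: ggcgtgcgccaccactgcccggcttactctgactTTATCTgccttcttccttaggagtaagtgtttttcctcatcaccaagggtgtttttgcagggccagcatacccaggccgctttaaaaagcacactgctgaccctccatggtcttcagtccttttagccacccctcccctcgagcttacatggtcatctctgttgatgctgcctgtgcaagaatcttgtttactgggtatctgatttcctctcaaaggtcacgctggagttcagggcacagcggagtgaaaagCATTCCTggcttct
Ankrd23, second start, chr1:36535690-36535989: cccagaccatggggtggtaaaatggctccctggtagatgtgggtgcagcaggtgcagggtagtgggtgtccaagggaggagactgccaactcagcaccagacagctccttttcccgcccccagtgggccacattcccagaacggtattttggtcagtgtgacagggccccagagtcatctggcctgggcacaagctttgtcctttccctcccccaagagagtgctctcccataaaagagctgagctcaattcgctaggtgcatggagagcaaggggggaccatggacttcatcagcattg

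The cyclic AMP response element, which binds CREB and ATF proteins, was found in the Clstn2 window and occurred in 1.79% of 32851 promoter windows of that length. The GATA letters were found in the Gm36670 window and in the first Ankrd23 window, against 11.2% of all windows. The M-CAT letters, known from muscle promoters, were found in the first Ankrd23 window, against 5.36% of all. None of the 4 windows held the AP-1 motif (TGANTCA), the letters TATAAA of a TATA box or a MEF2 core (TAAAAATA), which occurred in 7.81%, 13.6% and 2.72% of windows. These are matches of letters only.

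In cardiomyocyte nuclei, 3 of the 5 genes were higher and 2 were lower in R403Q-CD than in WT-CD. By the choice of the genes, the libraries of these groups overlapped for none of them, and 34.4% of all genes tested showed no overlap in that contrast. With edgeR and an adjusted p under 0.05, 9 genes (0.0621% of 14504) were called in this contrast, and nothing is read from it for the 5, which were chosen on it. In R403Q-EMPA, both libraries lay farther from WT-CD than both R403Q-CD libraries did for 5830418P13Rik, Ankrd23 and Clstn2, and the mutant groups overlapped for Rp1 and Gm36670. Over all genes tested, 51.4% showed no overlap between R403Q-EMPA and R403Q-CD in either direction. The share of all genes that lay farther from WT-CD in R403Q-EMPA was not computed.

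**Figure D1:**
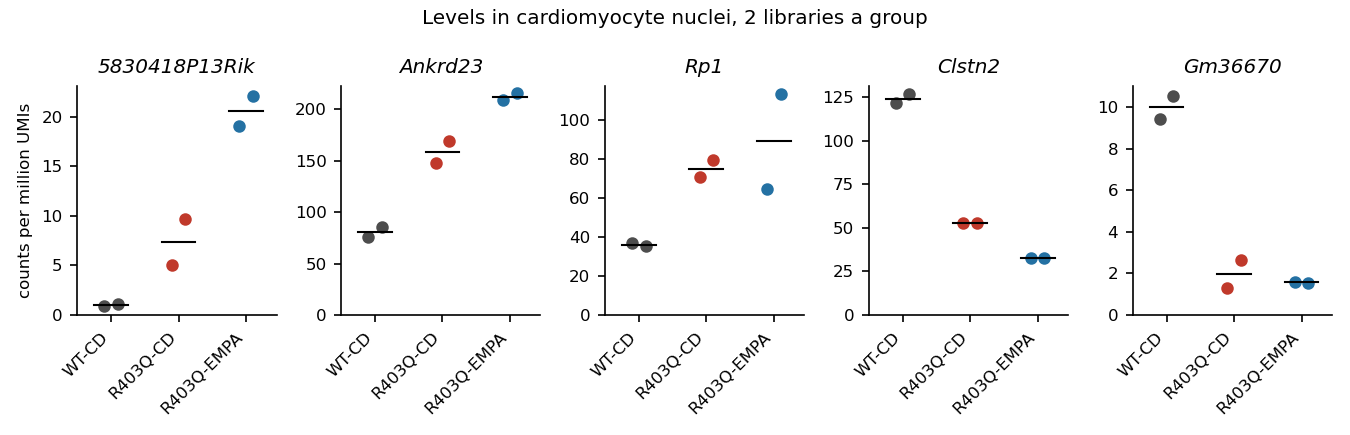
Level of each gene in cardiomyocyte nuclei, in CPM (y axis), with 1 point for each of the 2 libraries of WT-CD, R403Q-CD and R403Q-EMPA and a line at the group mean. 5830418P13Rik, Ankrd23 and Rp1 were lowest in WT-CD, and Clstn2 and Gm36670 were highest there.

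The long non-coding RNA 5830418P13Rik was nearly absent from wild-type cardiomyocytes. Its level was 0.940 and 1.15 CPM in WT-CD, 5.02 and 9.71 CPM in R403Q-CD, and 19.0 and 22.0 CPM in R403Q-EMPA. The 3 groups did not overlap. Group means were 1.04 ± 0.145, 7.37 ± 3.32 and 20.5 ± 2.10 CPM (SD, n = 2), and the WT-CD values rested on 8 and 10 UMIs. R403Q-CD was 7.06-fold above WT-CD.

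Ankrd23, the titin-binding protein, stood at 76.3 and 85.9 CPM in WT-CD, at 148 and 170 CPM in R403Q-CD and at 209 and 216 CPM in R403Q-EMPA. Again the groups were separate, in the order WT-CD, R403Q-CD, R403Q-EMPA. Means were 81.1 ± 6.82, 159 ± 15.4 and 212 ± 4.82 CPM (SD, n = 2), and R403Q-CD was 1.96-fold above WT-CD.

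For Rp1, the microtubule protein, values were 36.9 and 35.3 CPM in WT-CD, 70.5 and 79.2 CPM in R403Q-CD, and 64.7 and 113 CPM in R403Q-EMPA. Both mutant groups lay above WT-CD and overlapped with each other, since 1 R403Q-EMPA library was below and the other above both R403Q-CD libraries. Means were 36.1 ± 1.14, 74.8 ± 6.11 and 89.1 ± 34.4 CPM (SD, n = 2).

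Clstn2, the calsyntenin, stood at 122 and 127 CPM in WT-CD, 52.7 CPM in each R403Q-CD library, and 32.7 and 32.5 CPM in R403Q-EMPA. The groups were separate in the reverse order of Ankrd23. Means were 124 ± 3.59, 52.7 ± 0.0360 and 32.6 ± 0.195 CPM (SD, n = 2), so that WT-CD was 2.35-fold above R403Q-CD.

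Gm36670 was present at 9.40 and 10.5 CPM in WT-CD, 1.28 and 2.64 CPM in R403Q-CD, and 1.60 and 1.55 CPM in R403Q-EMPA. WT-CD was above both mutant groups, which overlapped. The mutant libraries held 13 to 31 UMIs of this RNA each, against 80 and 92 in WT-CD, so its levels there rest on few molecules.

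How R403Q-EMPA stood against WT-CD bears on how far treated mutant hearts lay from wild-type hearts. It used the WT-CD libraries on which the genes had been chosen, so it is not independent of that choice. edgeR called 5 of the 5 genes, where 572 of 14504 genes (3.94%) were called. The log2 fold change was 4.22 ± 0.38 (SE) for 5830418P13Rik (adjusted p = 0.00167), 1.32 ± 0.17 for Ankrd23 (adjusted p = 0.00504) and 1.25 ± 0.25 for Rp1 (adjusted p = 0.0270). It was -1.997 ± 0.149 for Clstn2 (adjusted p = 0.000588) and -2.72 ± 0.36 for Gm36670 (adjusted p = 0.00613). The call for Rp1 was lost without WT-CD replicate 1 or 2 or R403Q-EMPA replicate 2 (adjusted p up to 0.0837, log2 fold change 0.73 in the last case), while the other 4 genes were called whichever library was left out, in fits that called 138 to 732 genes. It was also lost in a fit of these 2 groups only (adjusted p = 0.0507), and when nuclei with 2 or more UMIs of 6 markers, Kcnj3 among them, were left out (0.95, adjusted p = 0.139), which kept 287 of 1126 and 166 of 723 WT-CD nuclei.

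The effect of empagliflozin within the mutant was read from R403Q-EMPA against R403Q-CD, whose R403Q-CD libraries had also served in the choice. None of the 5 genes was called by edgeR, where 29 genes (0.2%) were. At an unadjusted p under 0.05 were 12.3% of the 14504 genes and 3 of the 5, namely Clstn2 at -0.74 ± 0.15 on the log2 scale (SE, adjusted p = 0.0891), 5830418P13Rik with 1.43 ± 0.29 (adjusted p = 0.0891) and Ankrd23 with 0.38 ± 0.16 (adjusted p = 0.387). Rp1 (0.22 ± 0.24) and Gm36670 (-0.37 ± 0.40) differed by about their SE or less, and each changed direction when 1 library was left out. Rp1 was at -0.30 without R403Q-EMPA replicate 2, and Gm36670 was at 0.23 without R403Q-CD replicate 2. With DESeq2, and with edgeR without the filter on low counts, both Clstn2 and 5830418P13Rik passed the threshold (DESeq2 adjusted p = 0.0145 and 0.00593), in fits that called 1.52% and 2.55% of all genes. The edgeR call for Clstn2 was also made without WT-CD replicate 1 (adjusted p = 0.0330) or replicate 2 (adjusted p = 0.0355), and in a fit of the 2 mutant groups only (adjusted p = 0.0357), where 0.933%, 0.875% and 0.897% of all genes were called. Without any 1 of the 4 mutant libraries neither gene was called, with adjusted p from 0.182 to 0.568 for Clstn2 and from 0.114 to 0.503 for 5830418P13Rik.

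**Figure D2:**
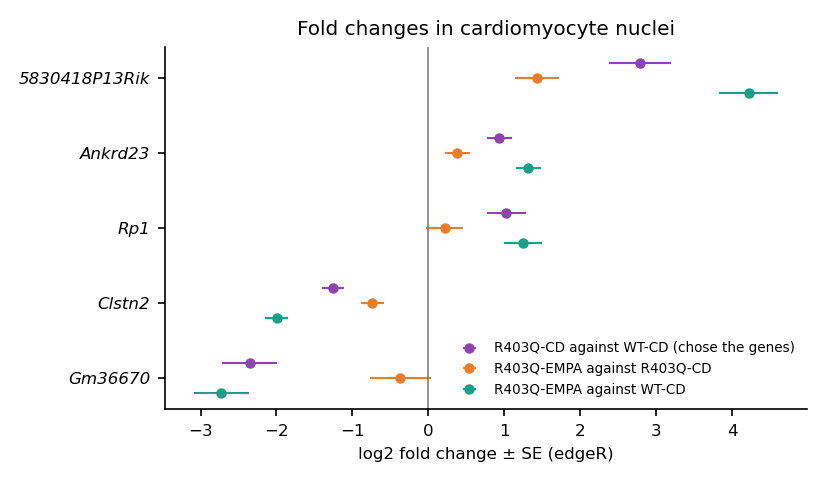
Log2 fold change (x axis) with its SE for each gene in cardiomyocyte nuclei in 3 contrasts that share libraries. In R403Q-EMPA against WT-CD, 5830418P13Rik at 4.22 and Gm36670 at -2.72 are the extremes.

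Other measures differed between these libraries as well. Among cardiomyocyte nuclei, the share in the cluster led by Ryr3 and Nppb was 5.60% and 7.75% for WT-CD libraries, 15.2% and 26.0% for R403Q-CD libraries, and 59.7% and 45.4% for R403Q-EMPA libraries. Summed atrial markers other than Kcnj3 (Myl7, Myl4, Sln, Bmp10, Kcna5), which mark atrial muscle, were 5.39 to 5.71 CPM in the 4 libraries on control diet and 19.0 and 11.5 CPM in R403Q-EMPA, with Bmp10 at 0 in every library. Kcnj3, counted among atrial markers but also a leading gene of the cluster led by Mylk4, was at 618 to 720 CPM on control diet and 347 and 471 CPM in R403Q-EMPA. When nuclei with 2 or more UMIs of the 5 were left out, the 5 genes stood at 4.39, 1.32, 1.23, -1.99 and -2.70 (5830418P13Rik, Ankrd23, Rp1, Clstn2, Gm36670) on the log2 scale in R403Q-EMPA against WT-CD, and all were still called, as were 4.07% of all genes, in this alternative, which was chosen after seeing the data. Fibroblast markers summed to 1464 and 1483 CPM in WT-CD, 1201 and 1268 CPM in R403Q-CD, and 976 and 1193 CPM in R403Q-EMPA cardiomyocyte nuclei. The limit on mitochondrial UMIs kept 1126 of 1342 and 723 of 1369 cardiomyocyte nuclei for WT-CD libraries, 988 of 3021 and 979 of 3268 for R403Q-CD libraries, and 1567 of 4362 and 1615 of 2826 for R403Q-EMPA libraries. Without that limit all 5 genes were called in R403Q-EMPA against WT-CD, at 4.08, 1.27, 1.17, -2.04 and -2.86 in the same order of genes, where 6.01% of all genes were called. The part of cluster shares, mitochondrial RNA and fibroblast RNA in the levels of the 5 genes was not tested.

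The share of cardiomyocyte nuclei with at least 1 UMI was compared after thinning each nucleus to 2000 UMIs, which left out 19 to 84 shallower nuclei a library. Ankrd23 was found in 13.7% and 15.2% of nuclei in WT-CD, 24.0% and 24.6% of those in R403Q-CD, and 29.4% and 33.3% of those in R403Q-EMPA. Without thinning the shares were 37.6% and 52.0%, 63.8% and 60.7%, and 67.3% and 65.8%. The groups were separate after thinning. In fibroblast nuclei, which should lack this muscle gene, the thinned share was 1.20% to 2.53%, and before thinning the median depth was 2528 to 4559 UMIs in fibroblast nuclei against 6853 to 12115 in cardiomyocyte nuclei.

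Clstn2 was found in 15.3% and 15.8% of thinned nuclei in WT-CD, 7.01% and 7.05% of those in R403Q-CD, and 5.80% and 4.51% of those in R403Q-EMPA. Its unthinned shares were 30.1% and 31.8%, 21.6% and 19.2%, and 12.5% and 10.7%. Rp1 was found in 6.23% and 4.98%, 8.61% and 9.44%, and 9.51% and 15.5% of thinned nuclei, against at most 0.160% in fibroblast nuclei. Its R403Q-EMPA and R403Q-CD libraries lay next to each other at 9.51% and 9.44%, and without thinning they overlapped, at 19.7% and 28.0% against 20.7% and 22.6%.

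The rarer RNAs were seen in few nuclei. 5830418P13Rik was found in 0.271% and 0.284% of thinned nuclei in WT-CD, 0.425% and 2.06% of those in R403Q-CD, and 3.24% in each R403Q-EMPA library. For Gm36670 the shares were 1.72% and 1.42%, 0.319% and 0.759%, and 0.270% and 0.381%. Unthinned, the group means were 0.795%, 4.99% and 8.72% for 5830418P13Rik and 6.59%, 1.83% and 0.976% for Gm36670. In fibroblast nuclei, at most 0.0315% and 0.157% of thinned nuclei held them. With 2 libraries against 2, the exact two-sided permutation test cannot go below p = 0.333, and this value was obtained in both R403Q-EMPA contrasts for each gene but Gm36670, where R403Q-EMPA against R403Q-CD gave an exact p = 0.667.

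The genes differed in how far they were restricted to cardiomyocytes. They had been chosen on cardiomyocyte nuclei and so had to be detected there, and these values are a description. In all 6 libraries 4 of the 5 were higher in cardiomyocyte nuclei than in all other nuclei of the same library. The mean difference in log2(CPM + 1) was 3.96 ± 0.47 for Rp1, 3.75 ± 0.35 for Ankrd23, 2.40 ± 1.43 for 5830418P13Rik and 1.66 ± 1.04 for Gm36670 (SD, n = 6). Clstn2 did not share this pattern, with a mean difference of 0.14 ± 0.61 over the 6 libraries, and the groups differed in it. In WT-CD it was higher in cardiomyocyte nuclei in both libraries, at 122 and 127 CPM against 68.1 and 67.3 CPM in other nuclei. In R403Q-CD it was lower in both, at 52.7 CPM in each against 63.6 and 61.1 CPM, and in R403Q-EMPA it was 32.7 and 32.5 CPM against 28.6 and 49.7 CPM, higher in 1 and lower in 1.

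**Figure D3:**
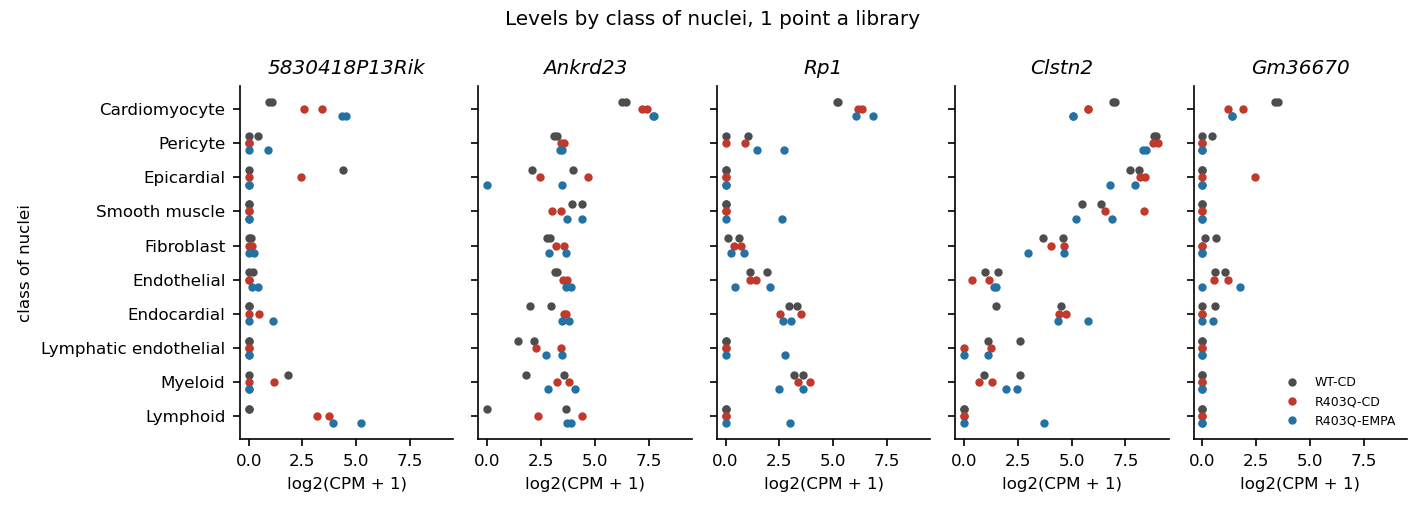
Level as log2(CPM + 1) (x axis) in 10 classes of nuclei (y axis), with 1 point a library coloured by group. Among these 10 classes, which leave out Schwann nuclei, Rp1 and Ankrd23 are highest in cardiomyocyte nuclei, whereas Clstn2 is highest in pericyte nuclei and high in epicardial nuclei.

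Clstn2 was highest in pericytes, the contractile cells around capillaries, at 452 and 481 CPM in WT-CD, 508 and 434 CPM in R403Q-CD, and 320 and 350 CPM in R403Q-EMPA. There WT-CD and R403Q-CD overlapped, and both R403Q-EMPA libraries were lower. The log2 fold change was 0.03 ± 0.15 (SE) for R403Q-CD against WT-CD, -0.53 ± 0.15 for R403Q-EMPA against R403Q-CD (edgeR adjusted p = 0.199) and -0.50 ± 0.15 for R403Q-EMPA against WT-CD (adjusted p = 0.154). None of the 3 passed the threshold after adjustment.

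In epicardial nuclei, the outer lining of the heart, Clstn2 ranged from 111 to 336 CPM, and in smooth muscle nuclei from 36.4 to 324 CPM. It was 6.94 to 23.8 CPM in fibroblasts and 1.80 to 53.6 CPM in endocardial nuclei. In endothelial nuclei it was 0.297 to 1.97 CPM, a median of 2.01% of the level in cardiomyocyte nuclei of the same library. Of the pericyte markers, Pdgfrb was at 3.21 to 8.46 CPM and Rgs5 at 8.14 to 13.1 CPM in cardiomyocyte nuclei, where pericyte nuclei had 1775 to 2578 and 1568 to 2033 CPM. Abcc9, a potassium channel subunit that heart muscle also expresses, was at 205 to 322 CPM in cardiomyocyte nuclei and 4578 to 5877 CPM in pericyte nuclei. The summed pericyte markers in cardiomyocyte nuclei were 359 to 366 CPM in the 4 libraries on control diet and 279 and 334 CPM in R403Q-EMPA.

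Ankrd23 outside cardiomyocytes stood at a small share of its cardiomyocyte level. Its median level was 6.57% of the cardiomyocyte level in pericyte, 5.99% in fibroblast, 7.30% in endothelial and 6.57% in endocardial nuclei. For Myh6, a cardiomyocyte gene, the same shares were 6.43%, 4.75%, 6.87% and 5.52%. Ankrd23 RNA in these classes was thus close to the trace of a gene that they should lack.

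Rp1 stood at 0.0896 to 0.833 CPM in fibroblasts, a median of 0.637% of its cardiomyocyte level, beside 4.75% for Myh6 and 0.574% for Ryr2. In myeloid nuclei it was 4.55 to 14.2 CPM and in endocardial nuclei 4.85 to 10.2 CPM, medians of 18.7% and 12.7%, from 81 and 85 UMIs over all libraries. Schwann nuclei held 17 UMIs in 59 nuclei, with 8523 to 68524 UMIs of all genes a library, too few to compare. Rp1 may stand as high there as in cardiomyocyte nuclei.

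5830418P13Rik was nearly absent from fibroblast, endothelial and pericyte nuclei, with 3, 3 and 2 UMIs over all 6 libraries. In lymphoid nuclei it had 3 and 2 UMIs in R403Q-CD, 2 and 3 in R403Q-EMPA and 0 in both WT-CD libraries, in 45 to 106 nuclei a library, so no fold is given. Classes with as few UMIs had other orders, with 4, 1 and 0 UMIs in epicardial and 4, 2 and 0 in myeloid nuclei over the libraries of WT-CD, R403Q-CD and R403Q-EMPA. Gm36670 outside cardiomyocytes was seen mainly in endothelial nuclei, with 43 UMIs, with 21 of them in R403Q-EMPA replicate 1 against 0 in its other library.

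In 9 other classes that could be fitted, 14 pairs of a gene and a class passed the filter, in 7 classes. None was called for the mutation (R403Q-CD against WT-CD), for the drug (R403Q-EMPA against R403Q-CD) or for both (R403Q-EMPA against WT-CD), where 0.00356%, 0.277% and 0.91% of all 84241 pairs of a gene and a class were. At an unadjusted p under 0.05 there were 2, 2 and 4 of the 14, all of Clstn2 or Ankrd23, where 3.79%, 9.12% and 11.6% of all such pairs were. DESeq2 was not run in these classes.

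Cardiomyocyte nuclei formed 3 clusters, and the members took part in the clustering, with 5830418P13Rik among the 10 leading genes of a cluster. Differences between clusters are therefore a description, and the contrasts within a cluster were an alternative chosen after seeing the data. The cluster led by Mylk4, a myosin light chain kinase, held 273 to 1009 nuclei a library, the one led by Ryr3 and Nppb 56 to 935, and a shallower one with Nppa among its leading genes 41 to 302.

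**Figure D4:**
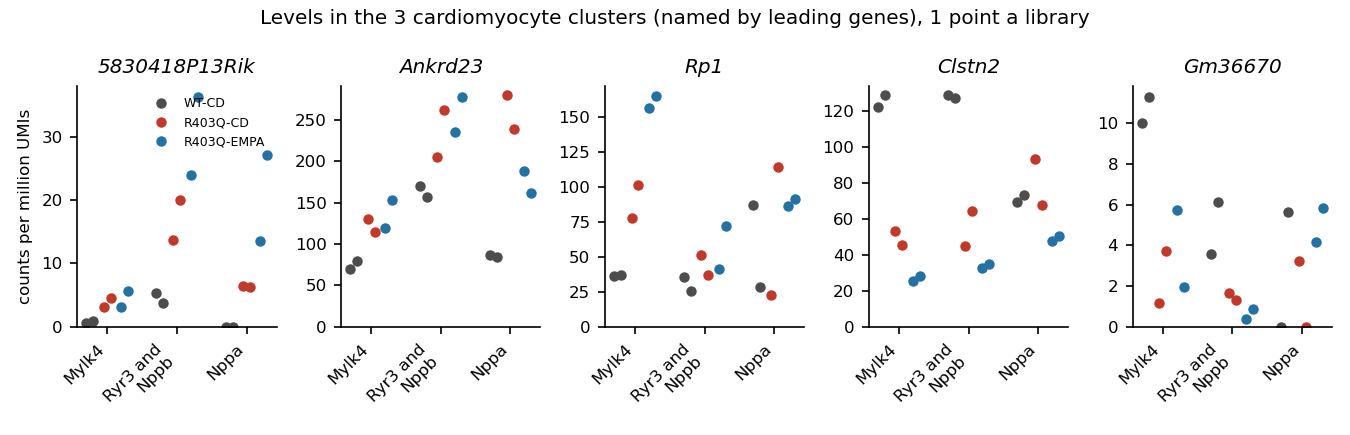
Level in CPM (y axis) in the 3 cardiomyocyte clusters, named on the x axis by leading genes, with 1 point a library coloured by group. Clstn2 is lower than WT-CD in both mutant groups in the first 2 clusters but only in R403Q-EMPA in the third, and Rp1 separates the groups most in the Mylk4 cluster.

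In the Mylk4 cluster, Rp1 stood at 36.4 and 37.0 CPM in WT-CD, 78.0 and 101 CPM in R403Q-CD, and 156 and 165 CPM in R403Q-EMPA. Here the 3 groups were separate, which they were not over all cardiomyocyte nuclei. The share of all genes with separate groups was not computed within clusters, for this gene or those below. In the Ryr3 and Nppb cluster, Rp1 was 35.8 and 25.8, 51.5 and 37.0, and 41.2 and 72.1 CPM, with mutant groups that overlapped. R403Q-EMPA against WT-CD gave a log2 fold change of 2.07 ± 0.18 (SE, edgeR adjusted p = 0.000114) in the first and 0.88 ± 0.36 (adjusted p = 0.294) in the second.

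Clstn2 was lower in mutant libraries in both of these clusters. In the Mylk4 cluster it was 122 and 129 CPM in WT-CD, 53.2 and 45.6 CPM in R403Q-CD, and 25.6 and 28.2 CPM in R403Q-EMPA. In the Ryr3 and Nppb cluster it was 129 and 128, 44.9 and 64.5, and 32.7 and 34.8 CPM. The shallow cluster differed, with 69.7 and 73.1 CPM in WT-CD and 93.4 and 68.1 CPM in R403Q-CD, which overlapped, and 48.0 and 50.5 CPM in R403Q-EMPA. There R403Q-EMPA against WT-CD was not called (-0.65 ± 0.39, SE, edgeR adjusted p = 0.577), whereas it was called in the other clusters.

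5830418P13Rik and Ankrd23 were higher in the Ryr3 and Nppb cluster than in the Mylk4 cluster in each library. 5830418P13Rik stood at 5.37 and 3.68, 13.7 and 20.04, and 23.9 and 36.2 CPM in the former, in the order WT-CD, R403Q-CD, R403Q-EMPA. It stood at 0.641 and 0.917, 3.05 and 4.56, and 3.06 and 5.67 CPM in the latter. In both clusters the mutant libraries lay above WT-CD, and in the Mylk4 cluster R403Q-CD and R403Q-EMPA overlapped.

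For Ankrd23 the values were 170 and 157, 205 and 262, and 236 and 277 CPM in the Ryr3 and Nppb cluster and 69.6 and 79.3, 130 and 115, and 119 and 153 CPM in the Mylk4 cluster. WT-CD was lowest in both, and R403Q-CD and R403Q-EMPA overlapped in both. Its call in R403Q-EMPA against WT-CD did not hold within clusters, with log2 fold changes of 0.81 ± 0.20 (SE, edgeR adjusted p = 0.0643) and 0.64 ± 0.20 (adjusted p = 0.160) in the Mylk4 and the Ryr3 and Nppb cluster.

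Gm36670 was found mostly in the Mylk4 cluster, at 10.0 and 11.3 CPM in WT-CD, 1.14 and 3.71 CPM in R403Q-CD, and 5.74 and 1.96 CPM in R403Q-EMPA. In the Ryr3 and Nppb cluster it was at 3.58 and 6.13, 1.64 and 1.28, and 0.378 and 0.854 CPM, from 2 to 5 UMIs a library. Its call in R403Q-EMPA against WT-CD was also lost within both clusters, with log2 fold changes of -1.69 ± 0.50 (SE, edgeR adjusted p = 0.131) in the first and -3.13 ± 0.86 (adjusted p = 0.106) in the second. In the R403Q-EMPA against WT-CD fits, 1.29% of genes were called in the Mylk4 cluster, 1.11% in the Ryr3 and Nppb cluster and 0.329% in the shallow one.

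Nuclei were also split within each library by whether they held a UMI of 6 stress genes (Nppa, Nppb, Ryr3, Ankrd1, Myh7, Acta1) after thinning. Ankrd23 was higher in nuclei with such a UMI in 6 of 6 libraries, by 0.35 ± 0.35 in log2(CPM + 1) (SD; exact two-sided sign-flip p = 0.03125, the smallest possible, adjusted p = 0.156 over the 5 genes), which did not pass the threshold. 5830418P13Rik was higher in 5 of 6, by 0.92 ± 0.84 (exact p = 0.0625, adjusted p = 0.156). Clstn2, Rp1 and Gm36670 had mean differences of -0.11 ± 0.39, -0.17 ± 0.54 and 0.23 ± 1.71, with exact p of 0.594, 0.438 and 0.781. The split separated nuclei weakly, since 842 of 1107 thinned nuclei in WT-CD replicate 1 held such a UMI. With Nppb or Ryr3 alone, a split chosen after seeing the data, Ankrd23 was higher in 5 of 6 libraries by 0.62 ± 0.44 and Clstn2 lower in 5 of 6, at -0.50 ± 0.30 (exact p = 0.0625 and adjusted p = 0.156 for each).

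Lists of genes related to each gene in function were read beside them, and were written with earlier results of these data known. In cardiomyocyte nuclei 6.76%, 12.3% and 19.0% of all 14504 genes were at an unadjusted p under 0.05 for the mutation, the drug and both, and DESeq2 called 0.689%, 1.52% and 4.95%. Of 22 titin and Z-disc genes listed around Ankrd23, 20 others were tested. In R403Q-EMPA against WT-CD, where 3.94% of all genes were called, 1 rose, Myot (myotilin of the Z-disc, log2 fold change 1.46 ± 0.22, edgeR adjusted p = 0.00981), and 1 fell, Capn3 (a protease that binds titin, -1.78 ± 0.32, adjusted p = 0.0184). The call for Capn3 was lost without WT-CD replicate 2 (adjusted p = 0.0542) or R403Q-EMPA replicate 1 (adjusted p = 0.127). In that contrast 8 of the 20 were at an unadjusted p under 0.05 and 6 were called by DESeq2. None of the 20 was called by edgeR in R403Q-CD against WT-CD or R403Q-EMPA against R403Q-CD, with 3 and 5 at an unadjusted p under 0.05 and 1 and 0 called by DESeq2. The median over the 20 was 0.06 in R403Q-EMPA against WT-CD and 0.08 in R403Q-CD against WT-CD, beside 0.00 and -0.01 over all tested genes. Ankrd1, the family member best known as a stress gene, stood at 0.04 ± 0.38 and -0.26 ± 0.38.

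Among calsyntenins and their partners, 14 genes besides Clstn2 were tested and none was called by edgeR or DESeq2 in any of the 3 contrasts, with 0, 1 and 3 at an unadjusted p under 0.05 by edgeR for the mutation, the drug and both. Their median log2 fold change was 0.30 in R403Q-EMPA against WT-CD and 0.32 against R403Q-CD, beside 0.00 and 0.01 over all genes. Clstn1, the widely expressed calsyntenin, stood at -0.43 ± 0.27 against WT-CD (SE, adjusted p = 0.419). Of the doublecortin-domain and axoneme genes, 9 besides Rp1 were tested and none was called by edgeR or DESeq2, with 0, 0 and 1 at an unadjusted p under 0.05 in the same contrasts and a median of -0.03 in R403Q-EMPA against WT-CD. Dclk1, a doublecortin-like kinase, was at -0.38 ± 0.57.

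Of the cardiomyocyte stress genes, 11 were tested. The list was written with earlier results of these data known, and Nppa, Nppb and Ryr3 were leading genes of cardiomyocyte clusters. Its counts beside those of all genes are therefore a description, not an independent test. Atf3, a stress transcription factor, was called in R403Q-CD against WT-CD (log2 fold change 2.49 ± 0.24, edgeR adjusted p = 0.0160), a call lost without R403Q-CD replicate 2 (adjusted p = 0.166) or WT-CD replicate 1 (adjusted p = 0.0660). In that contrast 4 of the 11 were at an unadjusted p under 0.05, and DESeq2 called Atf3 and Nppb (1.01, DESeq2 adjusted p = 0.0165). In R403Q-EMPA against WT-CD, 4 rose and 0 fell, where 3.94% of all genes were called, namely Nppa (4.23 ± 0.57, adjusted p = 0.00613), Nppb (2.03 ± 0.24, adjusted p = 0.00426), Atf3 (1.54 ± 0.24, adjusted p = 0.0104) and Des, which encodes the intermediate filament desmin (0.75 ± 0.16, adjusted p = 0.0373). Nppa was at 59.6 and 34.7 CPM in WT-CD, 142 and 233 CPM in R403Q-CD, and 1498 and 361 CPM in R403Q-EMPA, with 1 treated library far above the other. Without R403Q-EMPA replicate 1 its log2 fold change was 2.93 (adjusted p = 0.00673), the call for Atf3 was lost (1.27, adjusted p = 0.0621), and Nppb stood at 2.03 (adjusted p = 0.0172). The call for Des was lost whichever library was left out (adjusted p = 0.0501 to 0.244). Here 7 of the 11 were at an unadjusted p under 0.05 and 6 were called by DESeq2. For the drug, edgeR called 0 of the 11, with 8 at an unadjusted p under 0.05 and 2 called by DESeq2. Of the 8, 7 had positive log2 fold changes and Atf3 a negative one, at -0.96 ± 0.21 (edgeR adjusted p = 0.102). The 2 called by DESeq2 were Nppb, which rose (1.02, DESeq2 adjusted p = 0.00558), and Atf3, which fell (-0.96, DESeq2 adjusted p = 0.0325). The median over the list was 1.27 in R403Q-EMPA against WT-CD, 0.49 in R403Q-EMPA against R403Q-CD and 0.30 in R403Q-CD against WT-CD.

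The neighbours of each gene on the chromosome were read from RefSeq. 5830418P13Rik overlaps Bfsp2, a lens filament gene on the opposite strand. Bfsp2 had 83 UMIs in cardiomyocyte nuclei, at 0.235 and 0.229 CPM in WT-CD, 0.689 and 0.682 CPM in R403Q-CD, and 2.50 and 2.42 CPM in R403Q-EMPA. It thus had the same order of groups as 5830418P13Rik, and its log2 fold change of R403Q-EMPA against WT-CD was 3.28 (edgeR adjusted p = 0.0147; 0.0870 without R403Q-EMPA replicate 1). Whether counting used strand was not given in the sources used here, so reads of the pair may not be separable. Of the next genes, Cdv3 was called at 1.04 (adjusted p = 0.0152; 0.105 without R403Q-EMPA replicate 1), while Topbp1 (-0.37, adjusted p = 0.499) and Tmem108 (0.63, adjusted p = 0.210) were not.

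Near Ankrd23, Cnnm4, Cnnm3, Ankrd39 and Sema4c were tested in R403Q-EMPA against WT-CD and none was called, with log2 fold changes of 0.74, -0.02, 0.17 and -0.52. Next to Clstn2, Nmnat3 stood at -0.36 (adjusted p = 0.254). Next to Rp1, Sox17, an endothelial transcription factor, stood at 1.10 (adjusted p = 0.390). The neighbours of Gm36670 in the files, Irx3os, Gm36843 and Gm28516, had 21, 1 and 2 UMIs in cardiomyocyte nuclei and were too low to test.

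The genes with the most similar pattern over the 6 cardiomyocyte libraries were Cav3, Zfp445 and Rapgef5 for Clstn2 (Pearson r = 0.996, 0.995 and 0.994), Ube2l3, Plet1os and Spag1 for Ankrd23 (0.995, 0.993 and 0.992) and Ptdss1, 6030407O03Rik and Mrfap1 for 5830418P13Rik (0.994, 0.993 and 0.992). For Rp1 they were Zfp708, Cables2 and Necap1 (0.992, 0.989 and 0.989), and for Gm36670 Scyl3, Rom1 and Knstrn (0.992, 0.990 and 0.990). Cav3, the muscle caveolin, went from 63.2 and 56.3 CPM in WT-CD to 49.3 and 47.2 CPM in R403Q-EMPA, a far smaller change than that of Clstn2. With 6 points that share libraries and depth, these are a description.

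Over 10 classes of nuclei, Ankrd23 was most like Nmrk2, Adprhl1 and Klhl30 (r = 0.996, 0.995 and 0.992), of which Adprhl1 is a heart-enriched gene. Clstn2 was most like Cystm1, Sh3gl2 and Wdr93 (0.951, 0.949 and 0.913). Rp1 was most like Fuca2, Tmem144 and Gm35287 (0.971, 0.971 and 0.953), 5830418P13Rik like 2310067P03Rik, Gm33799 and Rimkla (0.986, 0.977 and 0.946), and Gm36670 like Gbp10, Serpinb1c and A1bg (0.982, 0.982 and 0.980).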

How the data were processed

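Single-nucleus libraries were made by the authors from frozen left ventricle and processed with Cell Ranger 8.0.1 on GRCm39, per the submitters' processing notes. The deposited values were raw UMI counts per gene and barcode, not normalised by the authors. Whether intronic or antisense reads were counted was not given in the sources used here.

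Groups came from the labels, and replicate numbers were given in order of deposit and pair nothing. Barcodes with at least 500 UMIs, 300 genes and at most 5% mitochondrial UMIs were kept, and doublets predicted per library by scrublet in scanpy 1.11.5 (3.68% to 6.45%) were removed. Counts scaled to 10000 a nucleus were clustered on 30 principal components of 2000 variable genes (15 neighbours, Leiden resolution 1), and the 20 clusters were named from markers. Cardiomyocyte nuclei were chosen by the 1.5% rule, and 198 of them lay outside the cardiomyocyte clusters. Other classes were the named clusters without these nuclei, and a class was fitted where each library held at least 20 nuclei.

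Counts were summed per library and class and tested with the quasi-likelihood test of edgeR 4.0.16 (R 4.3.3, filterByExpr, TMM scaling, all 6 libraries, 3 residual degrees of freedom), with Benjamini-Hochberg adjustment over all genes tested. CPM are relative to all UMIs of the summed nuclei. The step was tested on simulated data. For the text, the mutation is R403Q-CD against WT-CD, the drug R403Q-EMPA against R403Q-CD, and both R403Q-EMPA against WT-CD. Levels within a library were compared by exact sign-flip tests with a pseudocount of 1 CPM. DESeq2 1.42.0, leaving out each library in turn, and other filters, scalings and cardiomyocyte limits were tried as alternatives, and fits within clusters, nuclei with UMIs of atrial markers other than Kcnj3 left out and a split by Nppb or Ryr3 were added after seeing the data. Counting intervals are not given, since UMIs of 1 library are not replicates.

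Named genes were the 5 members, 4 gene lists, the 2 nearest genes on each side and any overlapping gene, and the 3 genes of most similar pattern. The members and lists were chosen with earlier results of these data known. Promoters were taken from RefSeq (GRCm38.p6), and gene coordinates are not given because the counts used another build. Schwann nuclei were too few to test.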

Additional observations from a re-analysis of the deposited data

Results flagged for a closer look

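Clstn2 had fold changes of opposite sign in different classes of nuclei, with libraries that did not overlap in either class. In R403Q-CD against WT-CD, the contrast that chose the gene, its log2 fold change was -1.26 in cardiomyocyte nuclei, 0.35 in epicardial nuclei and 1.59 in smooth muscle nuclei. In R403Q-EMPA against R403Q-CD it was -0.74 in cardiomyocyte, -0.92 in epicardial and -0.53 in pericyte nuclei but 1.04 in endothelial nuclei, where the libraries held 2 to 15 UMIs each. Outside cardiomyocyte nuclei none of these fold changes passed the threshold after adjustment. In R403Q-CD against WT-CD the edgeR adjusted p was 0.995 in epicardial and 0.660 in smooth muscle nuclei. In R403Q-EMPA against R403Q-CD it was 0.499 in epicardial, 0.199 in pericyte and 0.692 in endothelial nuclei. The share of all genes without overlap was not computed in these classes, and was 34.4% and 51.4% in cardiomyocyte nuclei. The differences between classes were not tested. Epicardial and smooth muscle sums rested on 27 to 71 nuclei a library.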

How the results depend on the processing

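The number of genes called in cardiomyocyte nuclei depended on the processing. In R403Q-CD against WT-CD it was 9 in the reported fit, 100 with DESeq2, 16 with library totals alone, 307 without a filter on low counts, 22 at a 3% limit for cardiomyocytes, 14 with cardiomyocytes taken by cluster, 450 without the mitochondrial filter, 14 with doublets kept, and 0, 26 and 0 in the Ryr3 and Nppb, the Mylk4 and the shallow cluster alone. In R403Q-EMPA against R403Q-CD it was 29, and 221, 3, 628, 44, 5, 56 and 128 with DESeq2, library totals, no filter, the 3% limit, no mitochondrial filter, nuclei with 2 UMIs of 6 markers (Kcnj3 included) left out and 2 groups only, and 58, 19 and 11 in those clusters. In R403Q-EMPA against WT-CD it was 572, and 1422, 910, 287, 339 and 274 with no filter, no mitochondrial filter, the same nuclei left out, thinning and 2 groups only, and 127, 172 and 20 in those clusters. Leaving out 1 library gave 0 (without R403Q-CD replicate 2) to 19 (without R403Q-EMPA replicate 1), 0 (without R403Q-CD replicate 2) to 142 (without WT-CD replicate 1), and 138 (without R403Q-EMPA replicate 1) to 732 (without WT-CD replicate 1) in the 3 contrasts. Leaving out nuclei with Kcnj3 UMIs kept 224 and 293 R403Q-CD and 765 and 680 R403Q-EMPA nuclei, whereas 1120 and 716 WT-CD nuclei were kept when Kcnj3 was not counted. The cause was not tested.

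In R403Q-EMPA against WT-CD, which shares the WT-CD libraries used to choose the genes, 4 of the 5 were called in all 19 other settings and Rp1 was not (largest adjusted p 0.139). In R403Q-EMPA against WT-CD within single clusters, only 5830418P13Rik was called wherever it was tested (the Mylk4 and the Ryr3 and Nppb cluster). Reversals were Clstn2 in R403Q-CD against WT-CD in the shallow cluster (0.11), Gm36670 in R403Q-EMPA against R403Q-CD without R403Q-CD replicate 2 (0.23, range -0.77 to 0.23 with 1 library left out) and in the Mylk4 cluster (0.47), Rp1 there without R403Q-EMPA replicate 2 (-0.30, range -0.30 to 0.59), Ankrd23 there in the shallow cluster (-0.63), the Gm36670 difference by Nppb or Ryr3 UMIs (-1.11), and its difference in positive share at 1000 UMIs (0.0238 points). No paired analysis was possible because replicate numbers were given in order of deposit and the labels tie no libraries together. Depth limits Gm36670 and 5830418P13Rik, which had as few as 13 and 8 UMIs in a library.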
